A study of Mus musculus with 6 samples.

Results

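This account covers 10 genes of platelets and of megakaryocytes, the large marrow cells that shed platelets, in RNA sequencing libraries of sorted stromal cells from mouse femurs. The genes were chosen by name, for what their proteins do, but with earlier results of these data known. All 10 were found among the 17128 genes of the count table. They are the alpha granule chemokine genes Pf4 and Ppbp, the receptor genes Gp1ba, Gp1bb, Gp9, Gp5, Gp6 and Treml1, the tubulin gene Tubb1 and the granule gene Nbeal2. The study compared marrow stromal cells with and without a cre that removes the remaining Cxcl12 allele, the gene of a chemokine that holds blood cells in the marrow. Control libraries (n = 3) were GFP+ cells of mice with the genotype Cxcl12(GFP/fl); R26R(tdTomato/+). CXCL12-deficient libraries (n = 3) were GFP+ tdTomato+ cells of mice that carried Col2a1-cre in addition. Both groups thus have GFP in place of 1 Cxcl12 allele, and all mice were at postnatal day 21. The cre is driven by Col2a1, a gene of cartilage and its precursors, so the deficient gate holds only cells of that descent, whereas the control gate did not ask for tdTomato. Genotype, gate and loss of the floxed allele cannot be told apart. Nothing in the labels says whether libraries came from separate animals, so the p-values rest on library-to-library spread alone, which may be technical.

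Platelets have no nucleus and carry RNA made in megakaryocytes. Their alpha granules store chemokines and clotting proteins, and their surface carries receptors for von Willebrand factor and for collagen, through which they stick to injured vessels. In the marrow, megakaryocytes sit beside sinusoidal vessels and stromal cells that make CXCL12, and PF4 released by them is known to restrain blood stem cells.

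The labels and the sort were checked first. Cxcl12, summed over its 4 exon entries, had 3880, 3670 and 3690 CPM (counts per 1000000 reads, scaled by TMM factors) in control replicates 1, 2 and 3 and 1420, 1280 and 1160 CPM in CXCL12-deficient replicates 1, 2 and 3 (log2 fold change -1.54 ± 0.17 SE, adjusted p = 0.0053, edgeR). The other 9 stromal markers summed to 4650, 5580 and 4850 CPM in control replicates 1, 2 and 3 and to 7150, 5890 and 9280 CPM in deficient replicates 1, 2 and 3, with 9 of 9 log2 fold changes above 0 (0.22 to 0.98). By edgeR 2 of them rose, Adipoq (0.98, adjusted p = 0.038) and Ebf3 (0.71, adjusted p = 0.023). Total counts ran from 20133299 to 28009257, so 1 read was worth 0.0357 to 0.0472 CPM. Blood cell and endothelial markers were present in both groups, so the libraries also held RNA of other cells.

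The promoters of 4 members are shown: both chemokine genes, which are neighbours on chromosome 5 and fell in the deficient libraries, Gp1ba, which fell too and whose protein binds von Willebrand factor, and Gp6, which had no read in any deficient library. Each run gives the 250 bases before the RefSeq start site (GRCm38.p6), 5′ to 3′ on the strand of the gene. Capitals mark GATAA, the core that GATA factors bind, and GGAAG, a core of ETS factors such as FLI1, each searched on both strands (as TTATC and CTTCC on the other). GATA1 and FLI1 are known regulators of megakaryocyte genes.
Ppbp (chr5:90768268-90768517, plus strand): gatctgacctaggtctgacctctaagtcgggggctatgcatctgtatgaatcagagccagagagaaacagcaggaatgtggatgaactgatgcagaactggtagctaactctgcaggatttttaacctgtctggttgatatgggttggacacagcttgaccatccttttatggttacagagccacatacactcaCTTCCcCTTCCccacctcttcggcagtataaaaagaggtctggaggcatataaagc
Pf4 (chr5:90772185-90772434, plus strand): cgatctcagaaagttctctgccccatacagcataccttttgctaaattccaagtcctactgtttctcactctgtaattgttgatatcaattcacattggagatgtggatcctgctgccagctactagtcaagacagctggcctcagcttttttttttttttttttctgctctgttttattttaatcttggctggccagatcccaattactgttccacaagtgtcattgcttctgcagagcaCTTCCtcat
Gp1ba (chr11:70638872-70639121, plus strand): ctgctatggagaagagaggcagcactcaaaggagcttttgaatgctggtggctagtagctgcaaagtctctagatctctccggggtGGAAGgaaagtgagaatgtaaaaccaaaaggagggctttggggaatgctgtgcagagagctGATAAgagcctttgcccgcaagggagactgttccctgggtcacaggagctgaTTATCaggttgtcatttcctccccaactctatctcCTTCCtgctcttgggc
Gp6 (chr7:4397745-4397994, minus strand): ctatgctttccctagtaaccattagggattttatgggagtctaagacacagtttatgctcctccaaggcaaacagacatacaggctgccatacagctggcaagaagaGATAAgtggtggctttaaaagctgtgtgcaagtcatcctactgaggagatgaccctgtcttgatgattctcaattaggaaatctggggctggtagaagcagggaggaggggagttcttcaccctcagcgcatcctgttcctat

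In Gp1ba the search found GATAA 2 times, with 98 and 46 bases between the motif and the start site, and GGAAG 2 times. Gp6 held 1 GATAA, 138 bases from the start, and no GGAAG. Ppbp held 2 GGAAG cores side by side, 51 and 45 bases from the start, and Pf4 held 1, 4 bases from the start. All 10 members had a promoter in the RefSeq table. GATAA was found in 5 of the 10 (Gp9, Gp6, Nbeal2, Gp1ba and Gp5), against 22.6% of all 32851 promoters of the same length, and GGAAG in 9 of the 10, against 64.1%. Both were found in 4 of the 10, against 13.2%. These are matches of letters and were not tested as sites.

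The platelet genes were lower in the CXCL12-deficient libraries. Summed over the 10 members, the level was 87.3, 242 and 69.6 CPM in control replicates 1, 2 and 3 and 11.3, 12.4 and 10.6 CPM in deficient replicates 1, 2 and 3, so that 8.6% of the control mean was left. Pf4 and Ppbp held 84.3 of the 133 CPM of that control mean and kept 3.0% of their own. Gp1ba, Gp1bb, Gp9 and Gp5 together kept 19.2%, Gp6 with Treml1 2.21% and Tubb1 with Nbeal2 26.4%. Of the 10 members 9 passed the filter on low counts, and Gp6 did not. By the quasi-likelihood test of edgeR 4 of these 9 fell (adjusted p below 0.05 over all genes), against 3.94% of all 13926 genes tested, and the 4 were Pf4, Ppbp, Gp1ba and Gp1bb. None of the members rose, against 0.639% of all genes, and none was higher at an unadjusted p below 0.05 or by DESeq2 or limma-voom. The 9 had a median log2 fold change of -2.92, where all tested genes had 0.028. In 7 of the 9 every control library lay above every deficient library, against 13.9% of all genes. As the members were chosen with earlier results of these data known, the shares beside them only describe and are no test of the set. In bulk libraries fewer megakaryocytes or platelets and less RNA in each cannot be told apart.

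**Figure D1:**
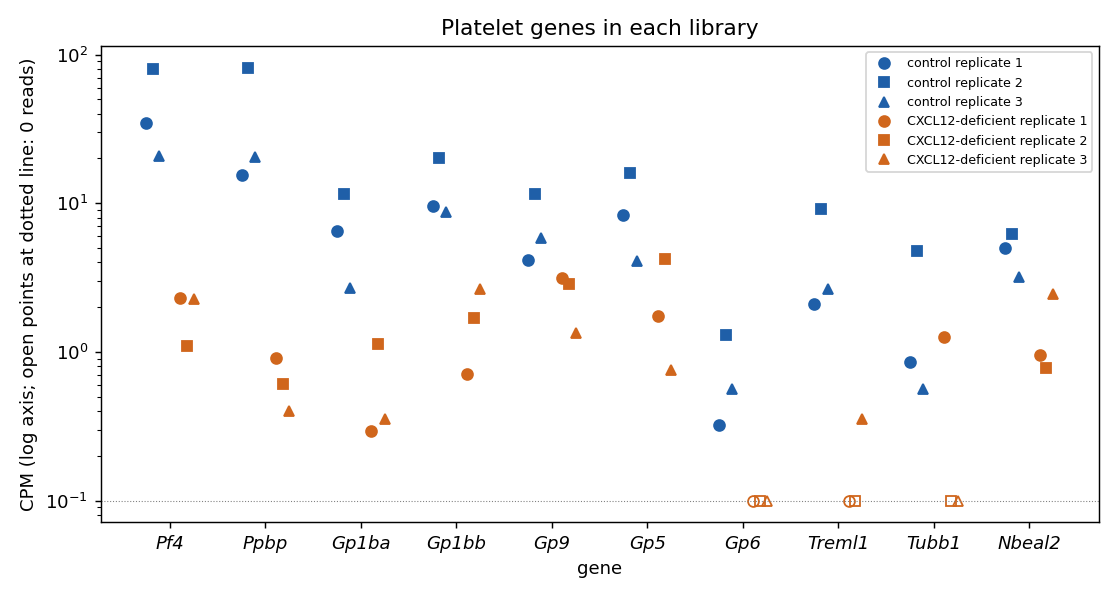
Level of each of the 10 members in each library, as CPM on a log axis; colour gives the group, shape the replicate, and open points on the dotted line stand for 0 reads. Control replicate 2 is the highest control at every member, and the groups overlap at Gp5 and Tubb1.

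Control replicate 2 stood apart for these genes. It was the highest control at all 10 members, between 1.52 times (Nbeal2) and 6.68 times (Tubb1) the mean of the other two controls. Of the 68 other megakaryocyte and platelet genes it was highest at 24. With that library left out, 2 members were called lower, Pf4 and Ppbp, and leaving out control replicate 3 instead gave the same 2. The lower sum of the members was present without that library too, since the other two controls summed to 87.3 and 69.6 CPM and no deficient library exceeded 12.4 CPM. Of these control sums Pf4 and Ppbp held 50.4 and 41.3 CPM. Every tested member kept a negative log2 fold change, but Gp9, Gp5 and Tubb1 came to -1.03, -1.47 and -0.76 (adjusted p = 0.47, 0.42 and 0.9, edgeR).

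Pf4 and Ppbp, which encode the chemokines platelet factor 4 (CXCL4) and pro-platelet basic protein (CXCL7), had the most reads of the 10. In GENCODE M21 on GRCm38 Ppbp (ENSMUSG00000029372.7) spans 90768518 to 90770063 and Pf4 (ENSMUSG00000029373.7) spans 90772435 to 90773383 of chromosome 5, both on the plus strand and 2371 bases apart. Pf4 had 34.9, 79.5 and 20.9 CPM in control replicates 1, 2 and 3 and 2.29, 1.09 and 2.26 CPM in deficient replicates 1, 2 and 3. The lowest control was thus far above the highest deficient library. The log2 fold change of Pf4 was -4.58 ± 0.54 (SE), a 23.9-fold difference (adjusted p = 0.0055, edgeR).

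Ppbp is cut by proteases into a chemokine that draws neutrophils. It had 15.5, 81.7 and 20.4 CPM in controls and 0.916, 0.611 and 0.4 CPM in deficient libraries. Its deficient libraries held 22, 14 and 9 reads, where control replicate 2 alone held 2009. The log2 fold change was -5.91 ± 0.74 (SE; 60.3-fold lower, adjusted p = 0.0057, edgeR). Without control replicate 2 the log2 fold changes were -3.89 for Pf4 and -4.79 for Ppbp, and both calls were kept in all 6 refits that left out a library. By limma-voom the adjusted p was 0.028 for Pf4 and 0.11 for Ppbp.

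The log2 ratio of Ppbp to Pf4 reads was -1.18, 0.04 and -0.03 in control replicates 1, 2 and 3 and -1.3, -0.81 and -2.44 in deficient replicates 1, 2 and 3. Every deficient library except replicate 2 lay below every control, so the groups overlapped. The mean ratio was lower by 1.13 in the deficient group, beside SDs of 0.68 in controls and 0.83 in deficient libraries (exact two-sided permutation p = 0.2, adjusted p = 0.27 over 4 ratios). The smallest p that 3 against 3 libraries allow is 0.1, so this test could not have passed at 0.05.

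Gp1ba, Gp1bb, Gp9 and Gp5 encode the 4 chains of the GPIb-IX-V complex, the receptor that catches von Willebrand factor on a damaged vessel wall. All 4 had negative log2 fold changes, and the 2 GPIb chains fell. Summed over the complex, controls had 28.6, 59.1 and 21.4 CPM and deficient libraries 5.87, 9.94 and 5.11 CPM, or 19.2% of the control mean, whereas the 2 chemokines kept 3.0%. Whether the complex and the chemokines differ in how much was left was not tested.

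Gp1ba (GENCODE M21, chromosome 11, 70639122 to 70642036, plus strand), the chain that binds von Willebrand factor, had 6.5, 11.6 and 2.69 CPM in controls and 0.292, 1.13 and 0.355 CPM in deficient libraries. The groups did not overlap, and the log2 fold change was -3.54 ± 0.74 (SE; adjusted p = 0.03, edgeR). This call was kept in only 1 of 6 refits, the one without deficient replicate 2, at a log2 fold change of -4.40. Leaving out control replicate 1, 2 or 3 gave an adjusted p of 0.058, 0.15 or 0.055, and leaving out deficient replicate 1 or 3 gave 0.079 or 0.075. The log2 fold change nearest to 0 was -2.94, with control replicate 2 left out.

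Gp1bb, the chain tied to GPIb alpha by a disulphide bond, had 269, 493 and 186 reads in control replicates 1, 2 and 3 and 17, 39 and 60 reads in deficient replicates 1, 2 and 3. The groups did not overlap, at 12.8 ± 6.27 CPM in controls and 1.69 ± 0.978 CPM in deficient libraries (SD, n = 3). The log2 fold change was -2.92 ± 0.54 (SE; adjusted p = 0.02, edgeR), and the call was kept in 3 of 6 refits. It was lost when control replicate 2 was left out (adjusted p = 0.097), when control replicate 3 was (0.061) and when deficient replicate 2 was (0.059). The count of Gp1bb is uncertain. On the minus strand of chromosome 16 (18620317 to 18622403), 91.1% of its exonic bases in GENCODE M21 are also exonic in the septin gene Sept5, on the same strand, so strand cannot separate them. Sept5 had 25.4, 30.6 and 34.8 CPM in controls and 20.1, 16.3 and 23.4 CPM in deficient libraries (log2 fold change -0.60 ± 0.22, adjusted p = 0.17, edgeR). It was picked after its values were seen. How the authors' counting assigned reads in the shared stretch is not given in the sources used here.

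Gp9 (chromosome 6, 87778072 to 87779768, plus strand), the small chain that the complex needs to reach the surface, had the least negative log2 fold change of the 9. It had 4.18, 11.6 and 5.81 CPM in controls and 3.12, 2.88 and 1.33 CPM in deficient libraries, without overlap. The log2 fold change was -1.55 ± 0.51 (SE), which did not pass in edgeR (adjusted p = 0.14).

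Gp5 (chromosome 16, 30307685 to 30310779, minus strand), a chain that thrombin cleaves, had 8.35, 15.9 and 4.06 CPM in controls and 1.75, 4.23 and 0.755 CPM in deficient libraries. Here deficient replicate 2 exceeded control replicate 3. Its log2 fold change was -2.07 ± 0.68 (SE; adjusted p = 0.14, edgeR).

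**Figure D2:**
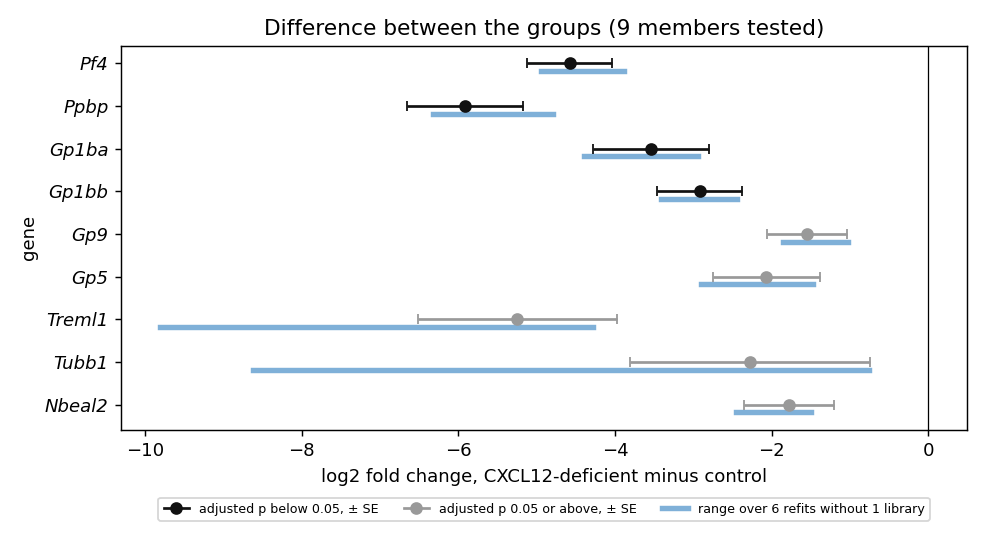
Log2 fold change of the 9 tested members (CXCL12-deficient minus control) with its SE; the blue bar below each point is the range over 6 refits that each left out 1 library. All 9 points and bars lie below 0; the bars of Treml1 and Tubb1 are widest, reaching -9.81 and -8.62 in refits whose deficient libraries held no read.

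Gp6 (chromosome 7, 4363965 to 4397744, minus strand) encodes glycoprotein VI, the platelet receptor for collagen, which signals through the FcR gamma chain encoded by Fcer1g. Control replicates 1, 2 and 3 held 9, 32 and 12 reads of Gp6 (0.321, 1.3 and 0.567 CPM), and no deficient library held a read. Over the group, 3 counts would be 0.0432 CPM, so the pooled control level of 0.718 CPM was at least 16.6-fold higher; this bound covers counting error only. Gp6 had too few reads for the filter in the main edgeR fit and was not tested there. With 1 library dropped, the filter kept Gp6 in 4 of 6 refits. In these 4 its log2 fold change ran from -7.45 to -7.13. With no deficient read, the size of these values is not measured, and the bound above is the limit that the reads give. EdgeR called Gp6 in 0 of the 4. Nor was Gp6 among the 5 members that edgeR called with no filter, where all 10 were tested. Its partner Fcer1g, named here with its values known and expressed by many myeloid cells as well, had 112, 122 and 136 CPM in controls and 61.3, 37.2 and 35.3 CPM in deficient libraries (log2 fold change -1.47, adjusted p = 0.012, edgeR).

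Treml1 (chromosome 17, 48359916 to 48367176, plus strand) encodes TLT-1, a receptor that lies in alpha granules and comes to the surface when platelets are activated. It had 2.11, 9.15 and 2.65 CPM in controls. In deficient libraries it had 0 reads in replicates 1 and 2 and 8 reads (0.355 CPM) in replicate 3. The groups did not overlap, but at a log2 fold change of -5.25 ± 1.27 (SE) the adjusted p was 0.052 (edgeR), just above the threshold. It passed at an adjusted p of 0.047 with no filter or with a filter of 1 CPM, and by DESeq2 (3.3e-05). Without deficient replicate 3, which held all its deficient reads, it passed at 0.021 (edgeR). In every other refit that left out a library it did not pass (adjusted p 0.06 to 0.25, edgeR), nor did it by limma-voom (0.094).

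Tubb1 (chromosome 2, 174450695 to 174457882, plus strand) encodes beta-1 tubulin, the main tubulin of the ring of microtubules that gives platelets their disc shape. It had 24, 117 and 12 reads in controls (0.857, 4.76 and 0.567 CPM) and 30, 0 and 0 reads in deficient libraries (1.25, 0 and 0 CPM). Deficient replicate 1 thus exceeded 2 of the 3 controls. The log2 fold change of -2.28 ± 1.53 (SE) did not pass (adjusted p = 0.48, edgeR). It was -0.76 without control replicate 2 (adjusted p = 0.9), which held 117 of the 153 control reads, and -8.62 without deficient replicate 1 (adjusted p = 0.08), which held all deficient reads.

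Nbeal2 (chromosome 9, 110624789 to 110654161, minus strand) encodes a protein that alpha granules need to form, and its loss causes grey platelet syndrome. Controls had 4.96, 6.22 and 3.21 CPM and deficient libraries 0.958, 0.785 and 2.44 CPM, without overlap. With -1.78 ± 0.57 (SE) it did not pass in edgeR (adjusted p = 0.13).

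The deficient libraries did not rank alike across members. Replicate 1 was highest at Pf4, Ppbp, Gp9 and Tubb1, replicate 2 at Gp1ba and Gp5, and replicate 3 at Gp1bb, Treml1 and Nbeal2. Reads over the 3 deficient libraries numbered from 0 (Gp6) and 8 (Treml1) to 171 (Gp9), against 53 to 3376 over the 3 controls. The calls depended on the tool. DESeq2 called 9 of the 10 lower, all but Tubb1 (adjusted p = 0.43), against 6.81% of genes called lower by that tool. Its adjusted p was 0.0097 for Gp6, 0.042 for Gp9, 0.02 for Gp5 and 0.031 for Nbeal2. By limma-voom 2 of 9 were called, Pf4 and Gp1bb, against 3.88%.

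Levels of different genes were compared as mean CPM per kilobase of exon. In controls Pf4 had 62.6 ± 42.4 and Ppbp 36.2 ± 34.1 (SD, n = 3), and their ranges overlapped. The lowest Ppbp control (14.3) lay above the highest Gp9 control (13.1). Next came Gp9 at 8.16 ± 4.42, Gp1bb at 6.14 ± 3.01, Gp5 at 4.29 ± 2.72, Treml1 at 3.3 ± 2.79, Gp1ba at 2.55 ± 1.65, Tubb1 at 1.47 ± 1.66 and Nbeal2 at 0.502 ± 0.158, each overlapping its neighbour in the order. Gp6 was lowest at 0.124 ± 0.0864, below every Nbeal2 control. The place of Gp1bb is uncertain in both groups, since 91.1% of its exonic bases are shared with Sept5. In deficient libraries the order was different. Gp9 at 2.77 ± 1.10 and Pf4 at 2.61 ± 0.951 came first and overlapped, Gp5 (1.02 ± 0.815) and Gp1bb (0.81 ± 0.469) followed, and Ppbp had 0.593 ± 0.24. Among controls the lowest Pf4 value per kilobase (29.0) exceeded the highest Gp9 value, while in deficient libraries both ranges crossed.

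The other genes of megakaryocytes and platelets came from 5 lists of receptors, signalling proteins, granule proteins, transcription factors and cytoskeleton. Of 67 tested 22 fell and 0 rose by edgeR (1 was higher at an unadjusted p below 0.05, and DESeq2 and limma-voom each called 0), against 3.94% and 0.639% of all genes. The median log2 fold change was -0.94. These lists are not particular to platelets. Among the 22 are Fcer1g, Plek, Syk, Plcg2, F13a1 and Pdgfb, which leukocytes or endothelium also express. Markers of such cells fell in the same libraries, and their part in the count was not tested. Leaving out control replicate 2 left 10 genes called lower, and leaving out control replicate 3 left 5. Limma-voom called 18 genes lower. Of the genes named below it did not call Clec1b (adjusted p = 0.062), F2rl2 (0.18), Alox12 (0.25) or Tuba8 (0.06).

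Among 16 tested integrins and agonist receptors 6 fell, and the median was -1.64 on the log2 scale. Clec1b, the podoplanin receptor CLEC-2, had 51, 156 and 28 reads in controls and 2, 0 and 0 reads in deficient libraries (adjusted p = 0.02, edgeR). Itga2b, the alpha IIb integrin chain that binds fibrinogen, had 35.5, 56.8 and 21.0 CPM in controls and 5.33, 8.07 and 1.6 CPM in deficient libraries (log2 fold change -2.92 ± 0.56, adjusted p = 0.022). F2rl2, the thrombin co-receptor PAR3, had 6.07, 24.3 and 3.78 CPM in controls and 0.0417, 0.916 and 0 CPM in deficient libraries (adjusted p = 0.048). As at the members, control replicate 2 was the highest control at all of Clec1b, Itga2b and F2rl2. Clec1b and Itga2b kept their calls in 3 of 6 refits and lost them when control replicate 2 or 3 was left out (Clec1b also without deficient replicate 2, Itga2b also without deficient replicate 1). F2rl2 kept its call in 1, the refit without deficient replicate 2.

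Among 12 signalling and eicosanoid genes 6 fell (median -1.35). Alox12, the platelet 12-lipoxygenase, had 1.64, 17.8 and 6.57 CPM in controls and 0.167, 0.305 and 0.577 CPM in deficient libraries (log2 fold change -4.62 ± 0.91, adjusted p = 0.024, edgeR). The call of Alox12 was kept in 2 of 6 refits, those without control replicate 1 or deficient replicate 3. Plek, the protein kinase C substrate pleckstrin, had a log2 fold change of -2.52, the kinase gene Syk -2.48 and the phospholipase gene Plcg2 -2.46. Plek and Syk kept their calls in all 6 refits and Plcg2 in 5, losing it without control replicate 3. These 3 genes are also expressed by many leukocytes, and in controls Syk and Plcg2 were highest in replicate 3, not in replicate 2.

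Of 16 genes of granule cargo and granule formation 6 fell (median -1.51). F13a1, the A chain of clotting factor XIII, which monocytes and macrophages also make, went from 96.3, 116 and 148 CPM to 14.9, 13.8 and 11.3 CPM (log2 fold change -3.17 ± 0.21, adjusted p = 0.0016, edgeR). Pdgfb, a growth factor gene that endothelium also expresses, had 70, 39 and 27 reads in controls and 2, 0 and 0 in deficient libraries (adjusted p = 0.028). Its call was kept only without deficient replicate 1, whereas that of F13a1 was kept in all 6 refits. Srgn, the granule proteoglycan serglycin, and Stxbp2, a syntaxin-binding protein of secretion, fell too, with log2 fold changes of -1.86 and -1.71. Srgn kept its call in 5 of 6 refits, losing it without control replicate 3, and Stxbp2 in 3, losing it without control replicate 2, control replicate 3 or deficient replicate 1. Among the 12 cytoskeletal genes 11 were matched and 3 fell. The log2 fold changes were -2.06 for the tubulin gene Tuba8, -1.74 for the actin regulator gene Was and -1.04 for the focal adhesion gene Zyx. Of these Zyx kept its call in 5 of 6 refits (not without control replicate 3), Was in 2 (those without control replicate 1 or deficient replicate 1) and Tuba8 in 1 (without control replicate 1).

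Among the 12 transcription factors 1 fell, Fli1, where 3.94% of all tested genes did. It went from 51.5, 57.4 and 67.9 CPM to 20.2, 36.7 and 28.7 CPM (log2 fold change -1.05 ± 0.23, adjusted p = 0.041, edgeR), and its highest control was replicate 3, not replicate 2. That call was kept in 1 of 6 refits, the one without deficient replicate 2. Gata1, which red cell precursors also use, had 42.5, 74.5 and 85.0 CPM in controls and 60.2, 89.5 and 42.5 CPM in deficient libraries, with full overlap (log2 fold change -0.07 ± 0.32, adjusted p = 0.94). Gata1 and Nfe2 are outside the naming rule and were picked after their values were seen. Nfe2, the factor of platelet release, had 176 ± 40.4 CPM in controls and 103 ± 34.0 CPM in deficient libraries (SD, n = 3; adjusted p = 0.16, edgeR). The median over these factors was -0.11.

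**Figure D3:**
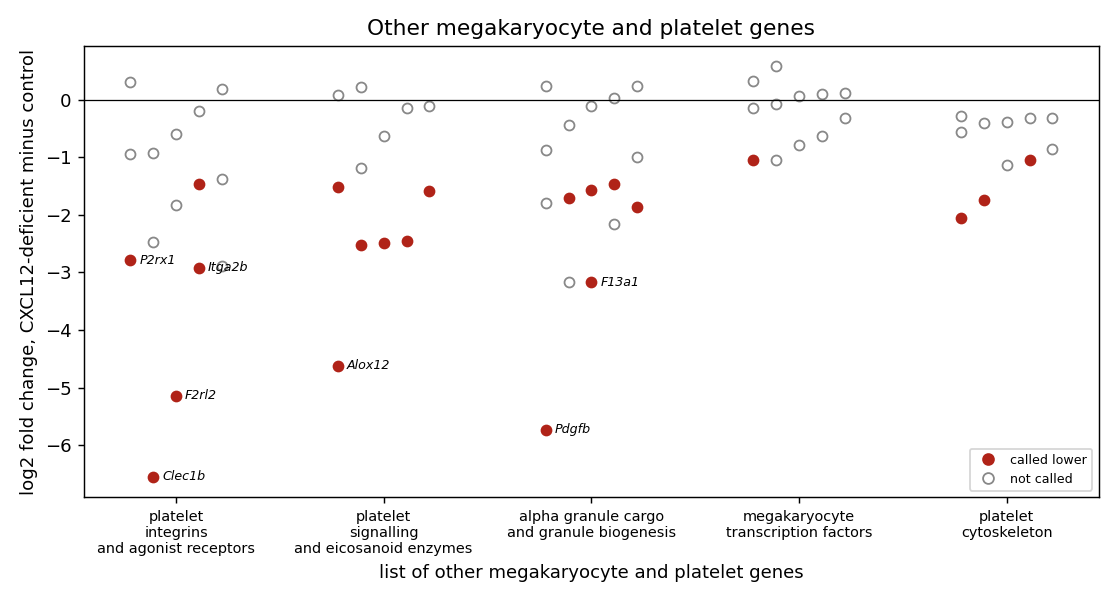
Log2 fold change (CXCL12-deficient minus control) of tested genes of the 5 other lists that had a read in a deficient library; each point is a gene, filled red where called lower. The called genes below -2.6 are named, and the transcription factors lie closest to 0 with a median of -0.11.

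Markers of other cells moved in the same libraries. The counts of markers that fell stand against 3.94% of all tested genes called lower by edgeR. All 10 neutrophil markers fell, and their sum ran from 14100 to 19900 CPM in controls and from 2310 to 6620 CPM in deficient libraries. Of 10 monocyte and macrophage markers 4 fell (1940 to 3150 CPM against 465 to 854 CPM), most of that sum being Lyz2, which neutrophils also express. Without Lyz2 the sum was 205 to 330 CPM against 114 to 216 CPM, and 4 of the other 9, C1qa, C1qb, C1qc and Mrc1, had log2 fold changes above 0 (up to 0.78), of which 2 were at an unadjusted p below 0.05 and 0 were called. Of 10 endothelial markers 5 fell (105 to 145 CPM against 17.5 to 33.4 CPM). Of the B lineage 2 of 8 fell (578 to 1070 CPM against 498 to 509 CPM). Much of that sum was Ebf1, which had 292, 261 and 271 CPM in controls and 296, 335 and 429 CPM in deficient libraries (adjusted p = 0.29, edgeR). The other 7 had log2 fold changes from -3.01 to -1.63 and summed to 286 to 798 CPM against 68.9 to 213 CPM. Of mast cell and basophil markers 1 of 7 tested fell (245 to 302 CPM against 37.9 to 132 CPM), and of T and NK cell markers 1 of 7 (42.7 to 78.7 CPM against 7.5 to 29.0 CPM). The markers that fell, Hdc and Nkg7, also held most of these sums, at 175 of 280 CPM and 42.4 of 60 CPM in controls (means). Log2 fold changes were negative at 6 of the 7 and at 7 of the 7. No marker of these lists was at 0 in every deficient library. The erythroid markers overlapped between the groups, at 1920 to 3110 CPM against 1380 to 4640 CPM, with 0 of 9 called or at an unadjusted p below 0.05 by edgeR. The part of these cells in the difference of the platelet genes was not tested.

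**Figure D4:**
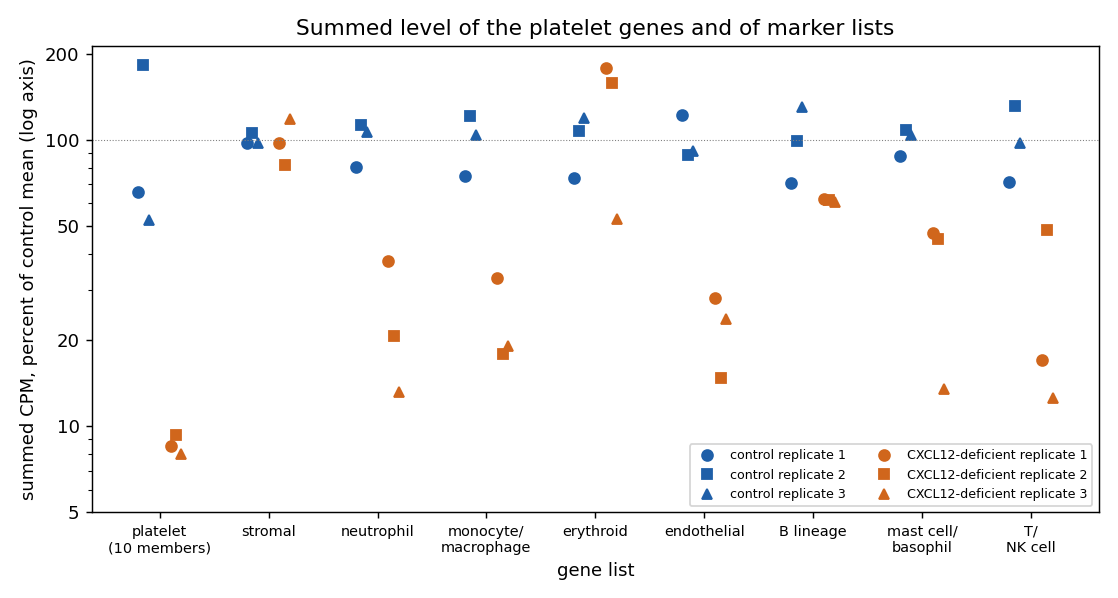
Summed CPM of the 10 platelet genes and of 8 marker lists in each library, as a percent of the list's control mean on a log axis; colour gives the group and shape the replicate. The 3 deficient libraries lie together for the platelet genes, at 8.6% on average, a sum that in controls is mostly Pf4 and Ppbp. They also lie together for the B lineage list. They spread on both sides of the control mean for the erythroid list. The stromal sum includes Cxcl12.

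Pf4 was also compared within each library with 1 gene each of leukocytes, red cells and endothelium. Relative to Slc4a1, the anion exchanger of red cells, the log2 ratio of Pf4 was -3.44, -2.77 and -5.21 in controls and -7.63, -9.4 and -6.77 in deficient libraries. The groups did not overlap, and the mean was lower by 4.12 (exact two-sided permutation p = 0.1, the smallest possible with 3 against 3; adjusted p = 0.27 over 4 ratios). Relative to Ptprc, the leukocyte antigen CD45, it was -0.77, 0.07 and -2.36 in controls and -2.46, -3.93 and -2.16 in deficient libraries, which overlapped (exact permutation p = 0.2, adjusted p = 0.27). Relative to Cdh5, the endothelial cadherin, it was 2.51, 4.47 and 2.17 in controls and 1.84, 3.35 and 2.16 in deficient libraries (exact permutation p = 0.5, adjusted p = 0.5). Cdh5 itself had only 15, 2 and 11 reads in deficient replicates 1, 2 and 3, so few reads set its ratios there. The mean difference to Cdh5 was -0.59 and became 0.11 without control replicate 2. None of these tests could pass at 0.05 with 3 libraries a group, so they do not show whether Pf4 fell more than the other gene or alike.

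The genes whose profile over the 6 libraries was most like that of the members were sought among the 12983 other tested genes whose mean level was 1 CPM or more. The measure was the root mean square distance, in log2 units, to the mean profile of the 9 tested members. Profiles were log2 of CPM with 0.5 CPM added, each centred on its own mean. The closest was Clec1b, at a distance of 0.11, where the median gene had 1.42. It had 0.0833, 0 and 0 CPM in deficient replicates 1, 2 and 3, so the added 0.5 CPM sets its profile there. Next came Fcnb (0.40), Lyz1 (0.42), Elane (0.44), Plek (0.45), Tesc (0.45), Klrb1f (0.47) and Cldn5 (0.48). Of these 8, Clec1b and Plek were in the platelet lists, while Elane is a neutrophil elastase gene and Cldn5 an endothelial claudin gene. The profiles share libraries and a difference between the groups, so the distances only describe these 6 libraries.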

How the data were processed

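The authors deposited whole-number read counts per gene of 6 libraries, not normalized, and these were the values used. Build mm10 and the tools HTSeq, DESeq2, Bowtie2 2.2.1, TopHat2 2.0.13, Cuffdiff, Cufflinks and FastQC are listed, per the submitters' processing notes, with no role for any. Which annotation and strand setting the authors used, and how overlapping genes were counted, was not given in the sources used here. The 4 exon entries of Cxcl12 were summed, which left 17128 genes.

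Libraries were grouped by their description label, and replicate numbers only name them. Deficient and control libraries were compared in edgeR 4.0.16 (R 4.3.3) with TMM factors, filterByExpr (minimum count 10, minimum total count 15), the robust quasi-likelihood F-test and Benjamini-Hochberg adjustment over 13926 genes, called below 0.05. SE came from the F statistic. The 4 within-library log2 ratios had 0.5 added to each count and used exact permutation. A group without reads was set to 3 counts over the group. The steps were tested on simulated counts.

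Members, lists and ratios were chosen with earlier results of these data known. The genes named outside the members were Cxcl12, up to 4 called genes of largest change from each of 5 lists, the partners in the ratios and the 8 nearest profiles. Fcer1g and Sept5 were added as partner and overlapping gene. Gata1, Nfe2, Adipoq, Ebf3, Lyz2, C1qa, C1qb, C1qc, Mrc1, Ebf1, Hdc and Nkg7, all from the lists, were added after their values were seen. Of the called genes, 1 that this rule names is not reported here. Of 153 listed genes 3 were unmatched and 5 were found under an older symbol. Alternatives were other scaling factors, filters and thresholds, DESeq2 1.42.0, limma-voom (limma 3.58.1) and leaving out each library. Promoters are from RefSeq, gene coordinates from GENCODE M21, both on GRCm38, which may differ from the authors' annotation.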

Additional observations from a re-analysis of the deposited data

How the results depend on the processing

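With a member's log2 fold change refitted under the alternatives, 0 changed sign, 10 lost the call and 7 gained it. The other 99 kept direction and stayed as in the main fit, whether called or not called. Only 4 of the 9 tested members had a call to keep. DESeq2 called 9 members lower, 1030 genes lower and 303 higher. Limma-voom called 2 members lower. At an adjusted p below 0.01 the counts were 2 members, 5 of the other platelet genes, 79 genes lower and 1 gene higher. Leaving out 1 library at a time gave 2 to 4 members, 5 to 21 other platelet genes, 74 to 530 genes lower and 0 to 76 genes higher, the 0 in edgeR without control replicate 3, where 515 were higher at an unadjusted p below 0.05. The fewest calls came without control replicate 3 or 2, at 74 and 154 genes lower. The log2 ratio of Pf4 to Cdh5 ran from -1.04 to 0.11 and was above 0 without control replicate 2. The other 3 ratios kept their direction. The causes were not tested. Other scalings, filters and the fit without robust shrinkage left 4 or 5 members called, and moved the median of all genes to between 0.004 and 0.041. Depth limits the members most in the deficient libraries, where Gp6, Treml1 and Tubb1 had 0, 8 and 30 reads in all. No paired analysis was possible because the labels give no replicate numbers.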
